A study of Mus musculus with 24 samples.

Results

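The genes described here encode the chains of collagen, and they were followed in the ductus arteriosus (DA), the fetal vessel that joins the pulmonary artery to the aorta, and in the ascending aorta of mouse embryos with and without Prdm6 in the neural crest. Members were all rows of the count table whose identifier mapped to a protein-coding mouse gene named Col, a number, a and a number. This rule found 44 of the 54752 genes in the table, and 42 of them were among the 16463 genes that passed the filter on low counts. Col6a4 and Col6a5 did not pass and were not tested. Grouped by the type of assembly, the 44 genes comprised 11 fibrillar chains, 6 chains of type IV of the basement membrane, 3 chains of the basement membrane zone, 6 of type VI, 9 of the FACIT group (fibril-associated collagens with interrupted triple helices), 3 short chains, 4 transmembrane chains and 2 others.

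RNA-Seq gave 23 libraries from embryos at E18.5 on a C57/Black6 background: 7 of control DA, 5 of Prdm6-deficient DA, 6 of control ascending aorta and 5 of Prdm6-deficient aorta. Prdm6-deficient embryos were Wnt1Cre;PRDM6f/f, in which the Wnt1 promoter drives Cre in the neural crest, and cells of the vessel wall from other sources keep the gene. Controls were littermates labelled PRDM6wt/f or PRDM6wt/wt, except that control DA replicate 2 and control aorta replicate 3 came from 1 embryo labelled Wnt1Cre;PRDM6wt/wt, the only control with Cre. Prdm6-deficient DA replicates 1 and 2 were pools of 2 embryos each, several embryos gave both vessels, and replicate 4 of Prdm6-deficient DA was not used here.

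Collagens are built from chains wound into a triple helix, and each chain is the product of its own gene. Fibrillar chains of types I and III give a vessel wall its tensile strength, chains of types V and XI set the width of those fibrils, and FACIT members lie on the fibril surface. Type IV forms the sheet of the basement membrane around smooth muscle and under endothelium, type VI forms beaded microfibrils at the cell surface, and type VIII, a short-chain collagen, is made by vascular cells in growing or injured vessels.

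Total counts were 15163974 to 22610547 per library, so that 3 counts, taken as the limit of detection, stood for 0.135 to 0.201 CPM (read counts scaled to the size of each library, with TMM factors). Levels of Prdm6, the targeted gene, ranged from 84.9 to 128 CPM (median 104) in control DA and from 58.6 to 78.5 CPM (median 77.7) in Prdm6-deficient DA, and from 95.6 to 135 CPM (median 109) in control and from 61.9 to 81.2 CPM (median 69.6) in Prdm6-deficient aorta. No Prdm6-deficient library reached the lowest control of its vessel, and these counts cover the whole gene rather than its deleted part. The animal numbers of the embryos form 2 separate runs, the first and second series below. Coordinates are those of mm10 with GENCODE M21. A gene was called when the adjusted p (edgeR quasi-likelihood test, Benjamini-Hochberg over all 16463 genes) was below 0.01 and the log2 fold change was beyond 0.5 either way. In whole vessels, fewer cells of a type and less RNA per cell cannot be told apart. The 10 smooth muscle marker genes, summed, stood at 15144 to 26851 CPM in control DA, 10339 to 12529 in Prdm6-deficient DA, 8958 to 12734 in control aorta and 9881 to 11610 in Prdm6-deficient aorta.

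In the DA 14 of the 42 chains were called, 10 higher and 4 lower, against 5.43% of all genes tested (2.61% higher and 2.82% lower). In the aorta 9 chains were called, 4 higher and 5 lower, where 2.45% of all genes were called (1.63% higher and 0.826% lower). Col8a1, Col11a1 and Col12a1 rose and Col6a1 and Col6a2 fell in both vessels. Another 9 chains met the threshold in the DA and not in the aorta (Col3a1, Col5a2, Col6a3, Col16a1, Col18a1, Col20a1 and Col27a1 higher, Col8a2 and Col9a2 lower), and 4 met it in the aorta and not in the DA (Col23a1 higher, Col6a6, Col14a1 and Col24a1 lower). Whether an effect differed between the vessels was tested apart. The median log2 fold change of the 42 chains was 0.31 in the DA and 0.05 in the aorta, beside 0.01 and 0.00 over all genes tested. Type IV collagen, with 0 of 6 chains called in either vessel, and both type I chains were not among the called genes.

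**Figure D1:**
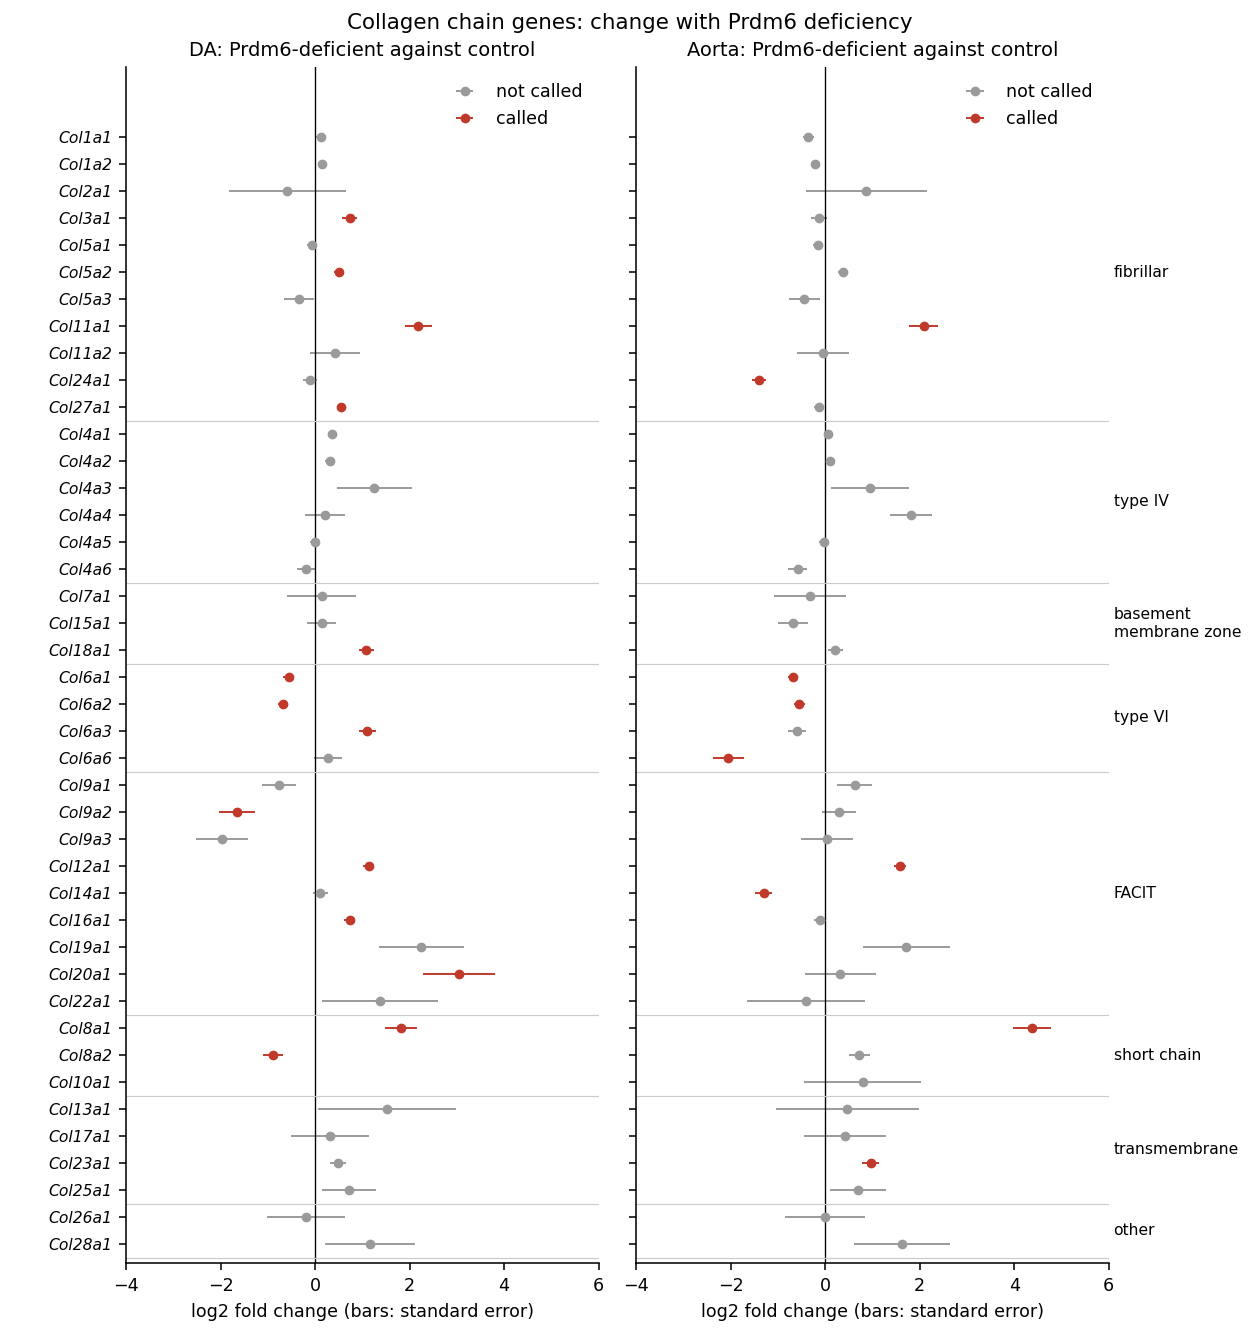
Log2 fold change of each tested collagen chain between Prdm6-deficient and control libraries, in the DA (left) and the aorta (right). Bars show the standard error worked back from the test statistic, and red points are called chains. Horizontal lines part the types of assembly. Col10a1 is left out of the left panel because it had 0 counts in every control DA library. Called chains number 14 on the left and 9 on the right, and Col8a1 in the aorta lies farthest from 0 among them.

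Among the called chains, the largest fold change in the aorta was in type VIII collagen. Col8a1 (ENSMUSG00000068196.5, chr16:57624258-57754737, minus strand) encodes the alpha 1 chain of this short-chain collagen. Its level ranged from 2.72 to 4.55 CPM (median 3.7) in control aorta, and the Prdm6-deficient aorta libraries held 48.7, 60.8, 136, 58.5 and 82.6 CPM. Every Prdm6-deficient aorta stood above every control aorta, and the level was 20.8-fold higher (log2 fold change 4.38, SE 0.41, adjusted p = 3.42e-08). In control DA the level ranged from 5.15 to 28.6 CPM (median 17.2), while Prdm6-deficient DA libraries held 80.7, 24.9, 94.1, 54.3 and 33.6 CPM. Here the groups overlapped, as the lowest Prdm6-deficient DA, replicate 2, lay below the highest control, and the rise was 3.52-fold (log2 fold change 1.82, SE 0.34, adjusted p = 0.000512). Col8a1 rose more in the aorta than in the DA (difference of the effects -2.56 on the log2 scale, DA minus aorta, adjusted p = 0.00239). Within the second series of embryos the DA change was 0.91 on the log2 scale with an adjusted p = 0.273, and within the first it was 2.06 with an adjusted p = 0.00621.

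Col8a2 (ENSMUSG00000056174.8, chr4:126286793-126314330, plus strand), the partner chain of type VIII collagen, went the other way in the DA. Its level ranged from 51 to 106 CPM (median 76.4) in control DA, and the Prdm6-deficient DA libraries held 44.9, 39.9, 54.5, 37.4 and 39.4 CPM. Replicate 5 of Prdm6-deficient DA lay inside the control range and the other 4 lay below it, for a level 54.3% of control (log2 fold change -0.88, SE 0.21, adjusted p = 0.00595). In the aorta Col8a2 ranged from 8.38 to 24.4 CPM (median 13.6) in controls and stood at 18.4, 16.9, 32.6, 28.2 and 24.6 CPM with Prdm6 deficiency, a difference that was not called (log2 fold change 0.72, SE 0.22, adjusted p = 0.0624). The effect differed between the vessels (-1.60 on the log2 scale, adjusted p = 0.00147). The call in the DA was lost without any 1 of Prdm6-deficient DA replicates 1, 2, 6 and 7 and control DA replicates 3, 5 and 7, where log2 fold changes of -0.80 to -0.90 had adjusted p values of 0.013 to 0.0211. Col10a1, a short chain of growth cartilage, had 0 counts in all 7 control DA libraries and 15, 0, 13, 11 and 0 counts in Prdm6-deficient DA, and was not called in any comparison.

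Col11a1 (ENSMUSG00000027966.20, chr3:114030540-114220718, plus strand), a chain of type XI that forms the core of thin fibrils and can join type V chains, rose in both vessels. It ranged from 3.9 to 16.4 CPM (median 10.3) in control DA, against 56.3, 31.8, 82.2, 40.8 and 30.4 CPM in Prdm6-deficient DA. The groups did not overlap, and the level was 4.55-fold higher (log2 fold change 2.19, SE 0.29, adjusted p = 5.03e-06). Control aorta ranged from 8.13 to 11.3 CPM (median 9.85) and Prdm6-deficient aorta held 37.8, 18.3, 58.6, 31.4 and 60.4 CPM, again without overlap and 4.25-fold higher (log2 fold change 2.09, SE 0.31, adjusted p = 4.19e-05). The effects in the vessels differed by 0.10 on the log2 scale, which did not pass the test (adjusted p = 0.956). This chain was called within both series of embryos in the DA (1.97 and 1.83, adjusted p = 0.00632 and 0.00377). Of its fibrillar partners, Col5a2 rose in the DA, from 638 ± 88.7 CPM (SD, n = 7) to 903 ± 90.6 CPM (SD, n = 5), with a fold change at the edge of the threshold (log2 fold change 0.50, SE 0.09, adjusted p = 0.000474). Prdm6-deficient aorta had 921 ± 92 CPM of Col5a2 against 709 ± 79.8 in control aorta, which was not called (adjusted p = 0.0198). Col5a1, the main type V chain, stood at 835 ± 142 CPM in control DA, 795 ± 106 in Prdm6-deficient DA, 792 ± 42.8 in control aorta and 711 ± 83.6 in Prdm6-deficient aorta and was not called. Col5a3 and Col11a2 were not called either, with levels of 7.07 to 77.1 and 0.167 to 3.99 CPM over the 23 libraries.

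Without any 1 of Prdm6-deficient DA replicates 1, 5 and 6 or control DA replicates 5, 6 and 7, the fold change of Col5a2 in the DA was 0.46 to 0.49 on the log2 scale and no longer past 0.5, with adjusted p values of 0.00114 to 0.00276. Cartilage also makes type XI collagen. Of 10 cartilage marker genes, 8 were tested, and in the DA Hapln1 and Acan were higher and Sox9 was lower with Prdm6 deficiency (named after their values were seen), with summed levels of 95.1 to 198 CPM in control and 265 to 345 CPM in Prdm6-deficient DA. In the aorta Hapln1 and Epyc were higher and Sox9 lower, and sums were 263 to 373 CPM in control and 260.4 to 423 CPM in Prdm6-deficient libraries. Col2a1, the defining chain of cartilage fibrils, stayed at or below 3.85 CPM in every library. The part of such cells in the change of Col11a1 was not tested.

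Among the FACIT chains, Col12a1 (ENSMUSG00000032332.17, chr9:79598991-79718831, minus strand), which lies on type I fibrils and is known in tissues under load, rose in both vessels. It ranged from 125 to 197 CPM (median 162) in control DA, while Prdm6-deficient DA libraries held 437, 284, 469, 321 and 277 CPM, a 2.2-fold higher level (log2 fold change 1.14, SE 0.12, adjusted p = 9.82e-08). Control aorta ranged from 94.6 to 119 CPM (median 106), and Prdm6-deficient aorta held 309.7, 339, 309.6, 296 and 323 CPM, 2.98-fold higher (log2 fold change 1.58, SE 0.12, adjusted p = 2.5e-09). In neither vessel did the groups overlap, and the chain was called within both series of embryos in the DA and within the second series in the aorta. Control DA had 1.53 times the level of control aorta (adjusted p = 0.000321), and with Prdm6 deficiency the difference between the vessels was 0.18 on the log2 scale (adjusted p = 0.715).

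Col14a1 (ENSMUSG00000022371.16, chr15:55307750-55520803, plus strand), a FACIT chain of fibrils early in their assembly, fell in the aorta. Control aorta ranged from 388 to 518 CPM (median 471) and Prdm6-deficient aorta held 239, 169, 152, 208 and 166 CPM, so that every Prdm6-deficient library lay below every control, at 40.4% of the control level (log2 fold change -1.31, SE 0.18, adjusted p = 1.36e-05). In the DA the level was 313 ± 94.2 CPM in controls and 339.7 ± 58.7 CPM with Prdm6 deficiency, which was not called (adjusted p = 0.752). The effects differed by 1.42 on the log2 scale (adjusted p = 0.000327). Col16a1 (ENSMUSG00000040690.15, chr4:130047840-130099283, plus strand), which joins fibrils to microfibrils, rose in the DA. It ranged from 91.7 to 166 CPM (median 106) in control DA and held 209, 207, 193, 184 and 207 CPM in Prdm6-deficient DA, above every control and 1.67-fold higher (log2 fold change 0.74, SE 0.11, adjusted p = 3.55e-05). In the aorta Col16a1 was 168 ± 18.3 CPM in controls and 156 ± 10.8 CPM with Prdm6 deficiency (adjusted p = 0.822), and the difference of the effects was 0.85 (adjusted p = 0.00143).

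The type IX chains, which decorate cartilage fibrils, were sparse. Col9a2 ranged from 8.86 to 17.4 CPM (median 13.9) in control DA and held 1.62, 7.33, 0.641, 4.14 and 7.36 CPM in Prdm6-deficient DA, lower in every library than in any control (log2 fold change -1.65, SE 0.37, adjusted p = 0.00291). Without Prdm6-deficient DA replicate 1 its change was -1.45 on the log2 scale with an adjusted p = 0.0111. In controls Col9a3 was higher in DA (15.1 ± 11.7 CPM) than in aorta (2.6 ± 1.92 CPM, log2 fold change 2.54, SE 0.53, adjusted p = 0.00139) and stood at 3.87 ± 2.41 CPM in Prdm6-deficient DA (not called, adjusted p = 0.0177). Col9a1 was not called and had 2.45 to 16.3 CPM across control DA. Col20a1 was called higher in Prdm6-deficient DA (0.294 ± 0.281 against 2.5 ± 1.23 CPM, log2 fold change 3.05, SE 0.76, adjusted p = 0.00703) on counts of at most 85 per library, and an overlapping noncoding gene on the same strand reached 10.2 CPM. Without any 1 of Prdm6-deficient DA replicates 1, 6 and 7 or control DA replicates 2, 4 and 6, its log2 fold change of 2.79 to 3.13 had an adjusted p of 0.0109 to 0.0228. In control and Prdm6-deficient aorta, Col9a2 averaged 9.15 ± 1.96 and 11.3 ± 2.36 CPM, Col9a3 2.6 ± 1.92 and 2.69 ± 1.85 CPM and Col20a1 1.02 ± 0.605 and 1.27 ± 0.951 CPM, none of them called (adjusted p = 0.869, 0.998 and 0.962). Col19a1 and Col22a1 were near the limit of detection in several libraries and were not called.

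Type VI collagen assembles from the products of Col6a1, Col6a2 and a longer partner chain, of which Col6a3 encodes the common form. In the DA its genes parted: Col6a1 and Col6a2 fell and Col6a3 rose. Col6a1 (ENSMUSG00000001119.7, chr10:76708792-76726168, minus strand) ranged from 557 to 969 CPM (median 797) in control DA, and Prdm6-deficient DA held 574, 518, 512, 491 and 517 CPM, of which replicate 1 lay inside the control range (log2 fold change -0.56, SE 0.11, adjusted p = 0.000948). Col6a2 (ENSMUSG00000020241.13, chr10:76595762-76623630, minus strand) ranged from 579.7 to 1096 CPM (median 787) in controls and held 520.4, 456, 522, 463 and 521 CPM with Prdm6 deficiency, below every control (log2 fold change -0.68, SE 0.11, adjusted p = 5.34e-05). Col6a3 (ENSMUSG00000048126.16, chr1:90765923-90843971, minus strand) ranged from 133 to 389 CPM (median 208) in controls and held 559, 476, 504, 433 and 535 CPM with Prdm6 deficiency, above every control and 2.16-fold higher (log2 fold change 1.11, SE 0.18, adjusted p = 7.88e-05). Without control DA replicate 3, in which both genes were highest, the change of Col6a1 was -0.49 on the log2 scale and fell short of the 0.5 required (adjusted p = 0.00245).

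In the aorta the type VI chains had fold changes of the same sign. Col6a1 ranged from 634 to 713 CPM (median 677) in controls and held 445, 438, 352, 508 and 356 CPM in Prdm6-deficient libraries (log2 fold change -0.68, SE 0.11, adjusted p = 0.000255). Col6a2 ranged from 524 to 582 CPM (median 552) and held 415, 369.6, 332, 416 and 354 CPM (log2 fold change -0.55, SE 0.11, adjusted p = 0.0021). For both genes every Prdm6-deficient aorta lay below every control. Col6a3 was also lower in every library, at 439, 358, 284, 441 and 344 CPM against 442 to 633 CPM, but was not called (log2 fold change -0.59, SE 0.19, adjusted p = 0.075). Its effect differed between the vessels by 1.70 on the log2 scale (adjusted p = 0.000128), whereas the differences for Col6a1 and Col6a2 were 0.13 and -0.14 and did not pass the test. Without Prdm6-deficient aorta replicate 3 the change of Col6a2 was -0.50 with an adjusted p = 0.0107. Col6a6 (ENSMUSG00000043719.14, chr9:105687809-105828160, minus strand), an alternative partner chain, ranged from 97.6 to 161 CPM (median 120.2) in control aorta and held 36.9, 29.4, 18.9, 41.9 and 26.1 CPM in Prdm6-deficient aorta, 24.2% of control (log2 fold change -2.05, SE 0.32, adjusted p = 0.00011). In the DA it was 44.9 ± 25.1 CPM in controls and 54.1 ± 17.4 CPM with Prdm6 deficiency (adjusted p = 0.656), and the effects differed by 2.32 (adjusted p = 0.000955). Col6a4 and Col6a5, the untested chains, reached 1.14 and 2.84 CPM at most.

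**Figure D2:**
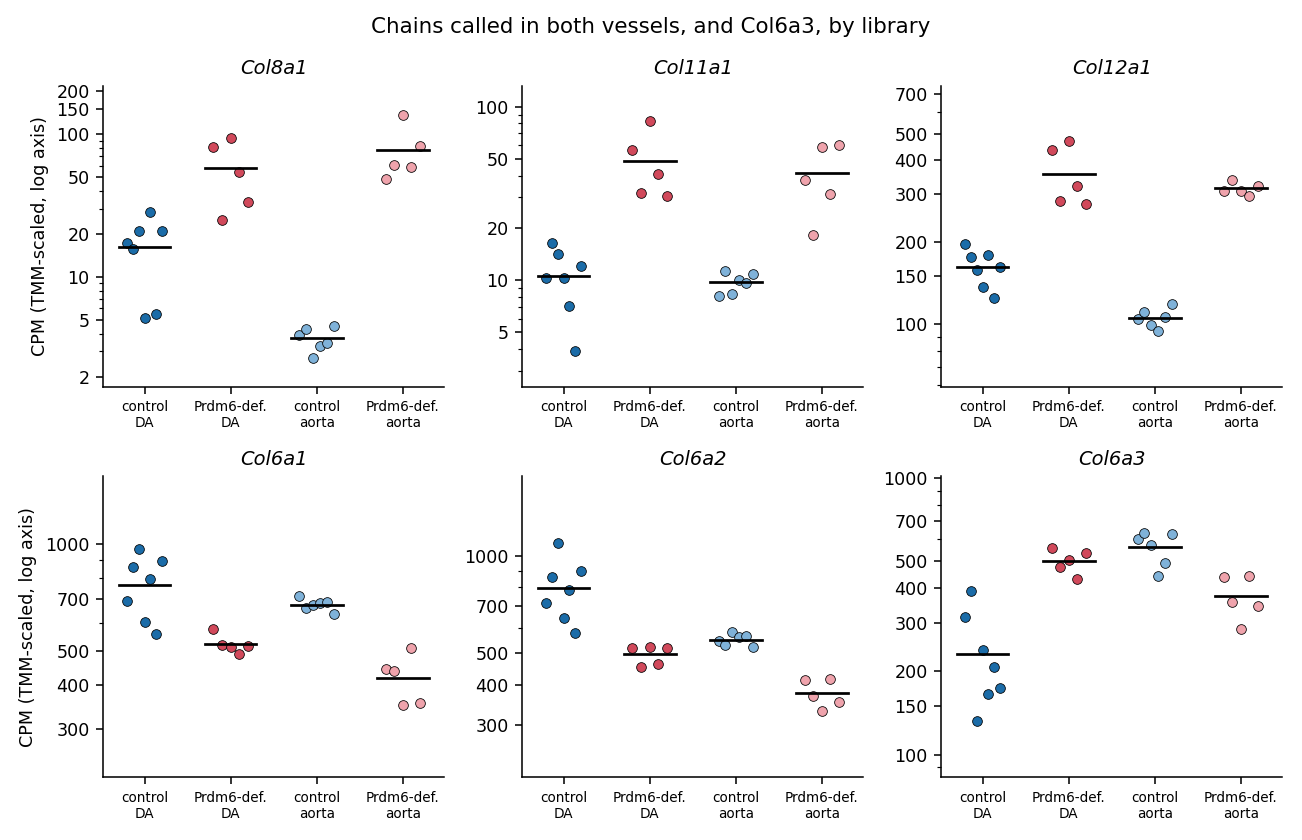
Level of 6 chains in each library on a log axis (CPM), by vessel and genotype, with a line at the group mean. Col8a1, Col11a1 and Col12a1 sit higher and Col6a1 and Col6a2 lower in the Prdm6-deficient libraries of both vessels, and Col6a3 sits above control in the DA and below control in the aorta, where it was not called.

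Col6a2 and Col6a1 lie on chr10, 85.2 kb apart on the same strand with no protein-coding gene between them, and Col6a3 is on chr1. The 250 bases before the transcription start site are printed for the type VI chain that rose in the DA, for Col6a2, which fell, and for Col8a1 and Col11a1, which rose in both vessels. They are from RefSeq (GRCm38.p6), each 5′ to 3′ on the strand of its gene, with capitals for a motif match. The windows are chr16:57754738-57754987, minus strand for Col8a1, chr3:114030290-114030539, plus strand for Col11a1, chr10:76623631-76623880, minus strand for Col6a2 and chr1:90843972-90844221, minus strand for Col6a3.
Col8a1: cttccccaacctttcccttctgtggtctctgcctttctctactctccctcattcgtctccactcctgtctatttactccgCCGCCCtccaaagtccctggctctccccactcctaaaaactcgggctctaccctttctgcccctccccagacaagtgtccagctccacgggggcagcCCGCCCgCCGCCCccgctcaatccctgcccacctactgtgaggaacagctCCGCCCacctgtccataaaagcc
Col11a1: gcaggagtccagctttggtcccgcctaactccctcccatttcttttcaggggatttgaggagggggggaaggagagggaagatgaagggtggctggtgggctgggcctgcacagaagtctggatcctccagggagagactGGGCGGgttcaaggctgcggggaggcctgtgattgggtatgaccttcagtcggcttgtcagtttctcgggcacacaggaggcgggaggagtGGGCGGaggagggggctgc
Col6a2: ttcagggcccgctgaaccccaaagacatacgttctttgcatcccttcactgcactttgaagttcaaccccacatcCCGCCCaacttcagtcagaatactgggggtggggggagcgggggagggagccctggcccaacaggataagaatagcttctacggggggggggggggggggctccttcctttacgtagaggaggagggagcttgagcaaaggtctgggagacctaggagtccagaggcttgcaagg
Col6a3: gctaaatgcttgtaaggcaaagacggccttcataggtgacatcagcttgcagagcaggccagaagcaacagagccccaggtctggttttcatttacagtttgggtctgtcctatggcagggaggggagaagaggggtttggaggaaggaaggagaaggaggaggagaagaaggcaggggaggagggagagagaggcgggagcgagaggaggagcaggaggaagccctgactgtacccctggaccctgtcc
The search covered AP-1 (TGANTCA, both strands), TEAD (GGAATG, both strands), a TATA element (TATAAA, forward strand), the GC-box (GGGCGG, both strands) and the CArG box by name, with no overlap between different motifs in these windows. GC-boxes began 170, 73, 66 and 23 bases before the start of Col8a1, 110 and 19 bases before that of Col11a1 and 175 bases before that of Col6a2, and Col6a3 held no match to these letters. Of 27025 promoters of this length, 33% held a GC-box, 6.85% AP-1, 12.6% TEAD, 8.13% the TATA element and 1.41% a CArG box. Promoters were found for 35 of the 44 collagen genes, of which 21 held a GC-box, 5 the TATA element, 2 TEAD, 1 AP-1 and 1 a CArG box. Those not found were Col1a1, Col2a1, Col4a3, Col5a2, Col9a3, Col12a1, Col14a1, Col22a1 and Col26a1.

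Of the most abundant chains, Col3a1 rose in the DA and the type I chains were not called. Col1a2, of type I collagen, averaged 4675 ± 564 CPM in control DA, 5200 ± 483 in Prdm6-deficient DA, 5508 ± 243 in control aorta and 4768 ± 324 in Prdm6-deficient aorta. Its partner Col1a1 averaged 2587 ± 484, 2823 ± 314, 3022 ± 274 and 2358 ± 244 CPM in the same order. Neither was called in the DA (adjusted p = 0.226 and 0.542) or in the aorta (adjusted p = 0.169 and 0.0645), although every Prdm6-deficient aorta had less Col1a1 than any control aorta. Col3a1 (ENSMUSG00000026043.18, chr1:45311538-45349706, plus strand), the type III chain of compliant tissues, ranged from 1992 to 5167 CPM (median 3283) in control DA and held 6362, 6313, 4780, 5183 and 6275 CPM in Prdm6-deficient DA. The groups overlapped and the mean level was 1.66-fold higher (log2 fold change 0.73, SE 0.17, adjusted p = 0.00345). Without any 1 of Prdm6-deficient DA replicates 1, 2 and 7 its change of 0.69 to 0.70 on the log2 scale had an adjusted p of 0.0112 to 0.0121. Of 10 other fits, 6 kept the call of Col3a1. It was lost with DA libraries alone (adjusted p = 0.0337) and without the pooled samples (adjusted p = 0.0502). The first series fitted apart gave a change of 0.57 (adjusted p = 0.238) and the second 0.88 (adjusted p = 0.036), neither of them called. In the aorta Col3a1 was 4465 ± 515 CPM in controls and 4079 ± 329 CPM with Prdm6 deficiency (adjusted p = 0.894). Col5a2 and Col3a1 are neighbours on chr1, 24.6 kb apart and tail to tail.

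Col24a1 and Col27a1 encode minor fibrillar chains known from developing bone and cartilage. Col24a1 (ENSMUSG00000028197.4, chr3:145292472-145552011, plus strand) ranged from 107 to 146 CPM (median 140.02) in control aorta and held 69.5, 52.3, 31.5, 55.5 and 43.7 CPM in Prdm6-deficient aorta, with no overlap and 37.7% of the control level (log2 fold change -1.41, SE 0.15, adjusted p = 4.74e-07). In the DA it was 75.6 ± 10.6 CPM in controls and 70.2 ± 12.3 CPM with Prdm6 deficiency (adjusted p = 0.726), and the effects differed by 1.30 on the log2 scale (adjusted p = 0.000151). Col27a1 (ENSMUSG00000045672.15, chr4:63214004-63334991, plus strand) ranged from 64.7 to 77.8 CPM (median 74.2) in control DA and held 119, 103, 125, 96.3 and 89.6 CPM in Prdm6-deficient DA, above every control (log2 fold change 0.56, SE 0.10, adjusted p = 0.000169). Its aorta levels were 108 ± 18 and 98.5 ± 6.47 CPM (adjusted p = 0.698), and the effects differed by 0.69 (adjusted p = 0.00233). Without Prdm6-deficient DA replicate 5 the change of Col27a1 in the DA was 0.49 on the log2 scale, short of 0.5, with an adjusted p = 0.00126.

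**Figure D3:**
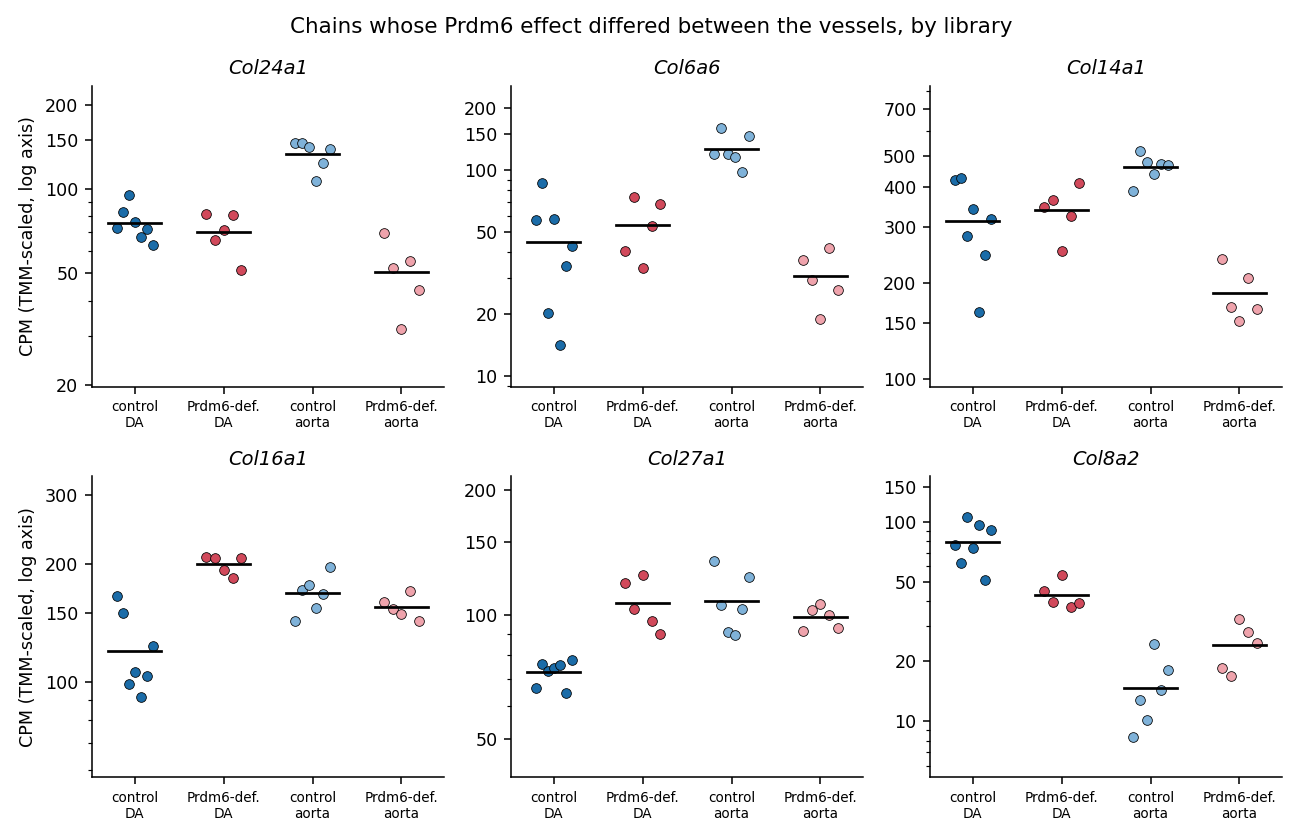
Level in each library (CPM, log axis) of 6 of the 8 chains whose Prdm6 effect differed between the vessels, with a line at the group mean. Col24a1, Col6a6 and Col14a1 fall in the aorta, Col16a1 and Col27a1 rise and Col8a2 falls in the DA. The other 2 chains, Col8a1 and Col6a3, are in the plot of Col8a1, Col11a1, Col12a1, Col6a1, Col6a2 and Col6a3 by library.

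Of the basement membrane chains, Col4a1 and Col4a2, which lie head to head on chr8 and share a promoter region, form the common type IV network of vessels. Col4a1 ranged from 874 to 1072 CPM (median 1045) in control DA and held 1402, 1116, 1536, 1230 and 1260 CPM in Prdm6-deficient DA, above every control. Its adjusted p passed but its fold change did not (log2 fold change 0.36, SE 0.08, adjusted p = 0.00274). Col4a2 was 529 ± 45.4 CPM in control and 654 ± 114 CPM in Prdm6-deficient DA (adjusted p = 0.0386). In the aorta Col4a1 was 1297 ± 98.9 and 1356 ± 159 CPM and Col4a2 595 ± 73 and 639 ± 73.1 CPM (adjusted p = 0.887 and 0.806). Of the chains of other type IV networks, Col4a4 was higher in every Prdm6-deficient aorta (1.37 ± 0.402 against 4.82 ± 2.04 CPM) with an adjusted p = 0.012, and Col4a3, Col4a5 and Col4a6 overlapped between the genotypes in both vessels.

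Col18a1 (ENSMUSG00000001435.15, chr10:77052178-77166548, minus strand), a basement membrane zone chain whose end fragment is endostatin, rose in the DA. It ranged from 45 to 95.7 CPM (median 62.7) in control DA and held 131, 142, 124, 136 and 195 CPM in Prdm6-deficient DA, 2.12-fold higher without overlap (log2 fold change 1.08, SE 0.16, adjusted p = 1.69e-05). In the aorta it was 103 ± 15.9 and 119 ± 16.8 CPM (adjusted p = 0.697). The difference of the effects, 0.87 on the log2 scale, did not pass the test (adjusted p = 0.0207). Col18a1 overlaps Slc19a1 on the opposite strand, which reached 17.3 CPM, and the counting is not stated to use strand. Col15a1, a related chain, averaged 20.3 ± 11.3 CPM in control DA, 22.4 ± 8.25 in Prdm6-deficient DA, 29 ± 6.14 in control aorta and 18.1 ± 4.91 in Prdm6-deficient aorta and was not called, nor was Col7a1, which anchors epithelial basement membranes.

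Col23a1 (ENSMUSG00000063564.13, chr11:51289920-51583918, plus strand) was the transmembrane chain that changed. It ranged from 16.2 to 22.6 CPM (median 18.8) in control aorta and held 34.9, 36.1, 49.3, 34.7 and 33.1 CPM in Prdm6-deficient aorta, 1.94-fold higher without overlap (log2 fold change 0.96, SE 0.17, adjusted p = 0.000578). In the DA it was 16 ± 3.98 and 22.4 ± 5.24 CPM (adjusted p = 0.0536), and the effects did not differ past the threshold (adjusted p = 0.358). Within the second series of embryos the change in the aorta was 0.82 with an adjusted p = 0.0152. The other 3 transmembrane chains, Col13a1, Col17a1 and Col25a1, and Col26a1 and Col28a1 were not called in any comparison, with group means of 0.149 to 3.25 CPM.

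The vessels of control embryos differed in 10 of 42 chains, 5 higher and 5 lower in the DA, where 5.36% of all genes were called (3.16% higher and 2.19% lower). This comparison uses the same control libraries as those above. Col8a2 was 5.42-fold (log2 fold change 2.44, SE 0.22, adjusted p = 8.61e-09) and Col8a1 4.39-fold (log2 fold change 2.14, SE 0.37, adjusted p = 0.000155) higher in the DA than in the aorta of controls, both without overlap. Col6a3, Col6a6, Col24a1 and Col27a1 were lower in control DA, at 41.3, 35.4, 56.5 and 67.3% of the aorta level. Col12a1, Col6a2 and Col9a3 were higher (0.62, 0.53 and 2.54 on the log2 scale), and Col18a1 was lower (-0.58) with an adjusted p = 0.00951, a call kept in 5 of 23 fits that each left out 1 library. For 6 control embryos both vessels were sequenced, and with the embryo as a block the pairing left Col6a2 at 0.42 (adjusted p = 0.00739) and Col18a1 at -0.58 (adjusted p = 0.0609), neither of them called, while the other 8 chains kept their calls. Without control aorta replicate 1 the change of Col27a1 was -0.50 (adjusted p = 0.000278), and without control DA replicate 3 that of Col6a2 was 0.44 (adjusted p = 0.000822), both short of the fold required. The labels state that less RNA was obtained from the DA than from the aorta, and the part of RNA input in these differences was not tested.

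Between the Prdm6-deficient vessels edgeR called 0 of 42 chains and 0.267% of all genes (0.152% higher and 0.115% lower in the DA). At an unadjusted p below 0.05 there were 12 chains and 1654 genes of 16463, and DESeq2 called 2 chains. For 7 chains the libraries of the vessels did not overlap, where 3.52% of all genes had no overlap. Col8a2 stood at 43.2 ± 6.91 CPM in Prdm6-deficient DA and 24.1 ± 6.59 CPM in Prdm6-deficient aorta (adjusted p = 0.0878), Col14a1 at 339.7 ± 58.7 and 186 ± 35.8 CPM (adjusted p = 0.0151), and Col23a1 at 22.4 ± 5.24 and 37.6 ± 6.61 CPM (adjusted p = 0.0413). Counting over the other comparisons, the groups did not overlap for 11 chains in the DA (5.66% of all genes), 14 in the aorta (6.95%) and 8 between the control vessels (5.36%).

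The effect of Prdm6 deficiency itself differed between the vessels for 8 of the 42 chains, 6 with a larger value in the DA and 2 with a larger value in the aorta, where 2.58% of all genes were called (0.917% and 1.66%). The 6 were Col6a3, Col6a6, Col14a1, Col16a1, Col24a1 and Col27a1 and the 2 were Col8a1 and Col8a2, with the values given above. Within the second series of embryos, 3 of the 8 were called, Col6a3 (1.75), Col6a6 (2.84) and Col14a1 (1.64). The first series held 1 control aorta and gave no value for this comparison. Both this test and that between the Prdm6-deficient vessels took libraries as independent, although some embryos gave both vessels. A block for the embryo was run for the control vessels only.

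Collagen mRNA as a whole took 1.66% (range 1.3 to 2.06%) of all counts in control DA, 2.05% (range 1.95 to 2.16%) in Prdm6-deficient DA, 1.94% (range 1.72 to 2.18%) in control aorta and 1.74% (range 1.63 to 1.91%) in Prdm6-deficient aorta, as medians. The shares overlapped between genotypes in both vessels. Col1a1, Col1a2 and Col3a1 made up a median of 63.6% of collagen counts in control DA and 67.6% in Prdm6-deficient DA, and 66.2 and 64.2% in control and Prdm6-deficient aorta. Type VI chains took 11% of collagen counts in control DA, 7.6% in Prdm6-deficient DA, 9.63% in control aorta and 7.05% in Prdm6-deficient aorta. Within each vessel the type VI ranges of the genotypes did not overlap.

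On the scale of CPM per kilobase of merged exons, which allows levels of different genes to be compared, the 3 highest chains in every group were Col1a1, Col1a2 and Col3a1. In control DA they stood at 394 ± 73.7, 376 ± 45.4 and 355 ± 128 (SD, n = 7) and were within their spread of each other. In Prdm6-deficient DA Col3a1 came first at 589 ± 76, and all 5 of its libraries exceeded the highest of Col1a1, at 430.1 ± 47.8 and of Col1a2, at 419 ± 38.8 (SD, n = 5). In control aorta the means were 460.4 ± 41.8 for Col1a1, 455 ± 52.5 for Col3a1 and 443 ± 19.6 for Col1a2, and in Prdm6-deficient aorta 416 ± 33.5 for Col3a1, 384 ± 26.1 for Col1a2 and 359 ± 37.3 for Col1a1, with overlapping ranges between neighbours in that order. With the length of the transcript with the longest coding sequence in place of merged exons, a choice made after the data were seen, the same 3 chains led but Col1a2 came before Col1a1 in every group. Col1a2 was then also above Col3a1 in Prdm6-deficient aorta (892 ± 60.7 against 733 ± 59.1) and in both control groups, and in Prdm6-deficient DA the ranges of Col3a1 and Col1a2 overlapped (859 to 1143 and 891 to 1090).

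Ratios of chains within a library cancel library scaling. Col6a3 to Col6a1, per kilobase, had a median (range) of 0.137 (0.0501 to 0.166) in control DA and 0.356 (0.323 to 0.379) in Prdm6-deficient DA, and 0.311 (0.238 to 0.362) and 0.318 (0.296 to 0.361) in control and Prdm6-deficient aorta. The DA genotypes did not overlap, and Prdm6-deficient DA overlapped both aorta groups. Col8a1 to Col8a2 was 0.129 (0.0399 to 0.169) in control DA, 0.833 (0.358 to 1.03) in Prdm6-deficient DA, 0.149 (0.0769 to 0.269) in control aorta and 1.93 (1.19 to 2.39) in Prdm6-deficient aorta, with every Prdm6-deficient library above every control library of both vessels. Col5a1 to Col5a2 was 1.43 (1.17 to 1.79) and 1 (0.831 to 1.12) in control and Prdm6-deficient DA and 1.26 (1.12 to 1.43) and 0.883 (0.809 to 0.916) in the aorta groups, lower with Prdm6 deficiency and without overlap in either vessel. Col3a1 to Col1a2 overlapped between the genotypes in both vessels. These ratios used merged exons, and their size depends on the length chosen, while their order between groups does not. With the length of the transcript with the longest coding sequence, the median of Col8a1 to Col8a2 in Prdm6-deficient DA was 1.23. Medians of Col5a1 to Col5a2 were then 1 and 0.699 in control and Prdm6-deficient DA and 0.88 and 0.616 in the aorta groups. The ratios were compared by their ranges and were not tested.

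**Figure D4:**
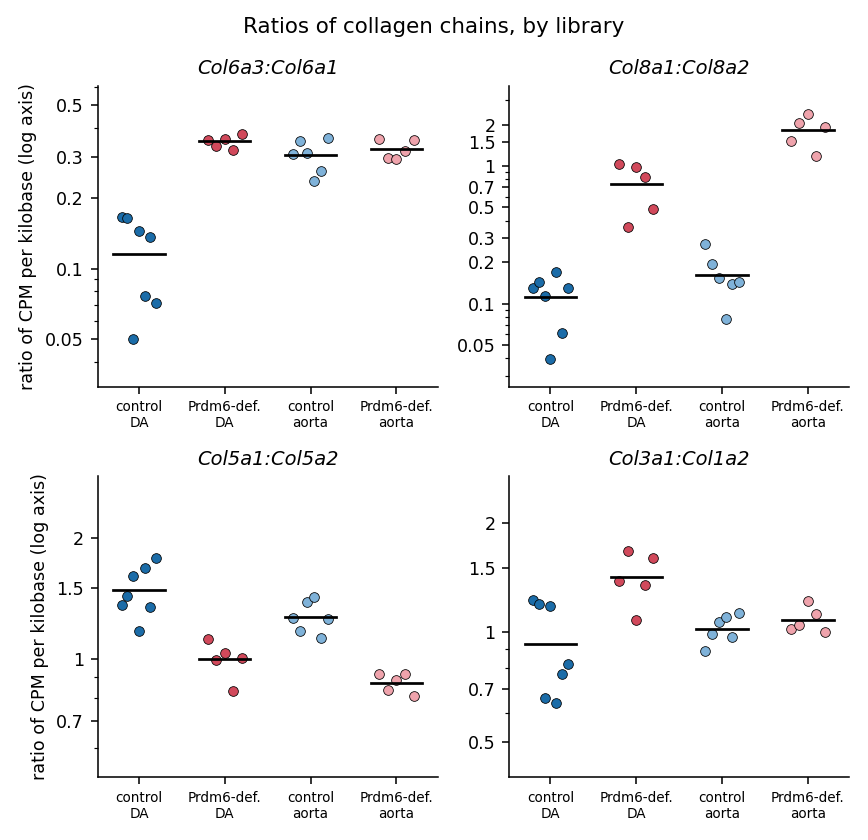
Ratio of CPM per kilobase of merged exons between pairs of chains in each library (log axis), by vessel and genotype, with a line at the group mean. Prdm6-deficient libraries lie above controls for Col8a1 to Col8a2 and below them for Col5a1 to Col5a2 in both vessels, and control DA alone lies low for Col6a3 to Col6a1.

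Genes that process and bind collagen were listed apart from the chains. Of all genes tested, 5.43% were called in the DA (2.61% higher and 2.82% lower). In the aorta 2.45% were called (1.63% higher and 0.826% lower). The counts below come from short lists and were not tested against these shares. Of 22 genes for folding and modification in the endoplasmic reticulum, 2 were called higher and 0 lower in the DA and 1 higher and 0 lower in the aorta. Plod2, which hydroxylates lysines of the chain ends for stable crosslinks, rose in both vessels, from 119.5 ± 7.11 to 198 ± 40.4 CPM in the DA (log2 fold change 0.73, SE 0.09, adjusted p = 1.64e-06) and from 115 ± 5.71 to 169 ± 9.91 CPM in the aorta (log2 fold change 0.56, SE 0.09, adjusted p = 0.00021). Creb3l1, a transcription factor for procollagen genes, rose in the DA (log2 fold change 0.83, SE 0.21, adjusted p = 0.00844). Of 8 genes for propeptide cleavage, 7 were tested. Adamts2, the main procollagen amino-end protease, fell in the DA from 728 ± 108 to 441 ± 35.9 CPM (log2 fold change -0.72, SE 0.10, adjusted p = 1.15e-05), and the related Adamts14 rose (log2 fold change 0.73, SE 0.15, adjusted p = 0.00113). None of this list was called in the aorta by edgeR, where Adamts2 had an adjusted p = 0.0061 and a log2 fold change of -0.46.

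Of 5 genes for crosslinking enzymes of the lysyl oxidase family, 1 was called lower in each vessel. Loxl4 fell in the DA from 42.8 ± 11.1 to 3.88 ± 1.63 CPM (log2 fold change -3.47, SE 0.29, adjusted p = 2.78e-09), and this effect differed from that in the aorta (-2.74, adjusted p = 3.32e-05). Loxl1, which also crosslinks elastin, fell in the aorta from 847 ± 107 to 473 ± 54.7 CPM (log2 fold change -0.84, SE 0.08, adjusted p = 1.24e-07). In the DA every Prdm6-deficient library had less Loxl1 than any control (593 ± 34.1 against 485 ± 27.9 CPM in control and Prdm6-deficient DA). This was not called (log2 fold change -0.29, SE 0.08, adjusted p = 0.0152), and the effects of the vessels differed by 0.55 (adjusted p = 0.00316). Of 12 genes for proteins that bind fibrils, 1 rose and 2 fell in the DA and 1 rose in the aorta. Lum, the fibril-binding proteoglycan lumican, rose from 178 ± 79.3 to 483 ± 51.3 CPM in the DA (log2 fold change 1.44, SE 0.20, adjusted p = 8.91e-06) and from 166 ± 34.6 to 506 ± 47.8 CPM in the aorta (log2 fold change 1.61, SE 0.21, adjusted p = 8.62e-06). Ogn (log2 fold change -0.67, SE 0.12, adjusted p = 0.000377) and Prelp (log2 fold change -1.48, SE 0.32, adjusted p = 0.00176), of the same family of proteoglycans, fell in the DA. Of 10 collagen receptor genes, 2 rose in the DA and 1 in the aorta. Itga11, an integrin chain for fibrillar collagen, rose in both (log2 fold change 1.61, SE 0.22, adjusted p = 6.1e-06 in the DA and log2 fold change 2.33, SE 0.23, adjusted p = 1.42e-07 in the aorta), and Itga10 rose in the DA (log2 fold change 1.45, SE 0.27, adjusted p = 0.000409).

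Markers of cell types were called in some lists and not in others, where 5.43% of all genes were called in the DA and 2.45% in the aorta. In the DA 9 of 10 smooth muscle genes fell with Prdm6 deficiency, at the summed levels given above, and 4 of 7 melanocyte genes fell, with sums of 33.1 to 237 CPM in control and 2.44 to 4.96 CPM in Prdm6-deficient DA, where 4 of the 7 genes were at or under 3 counts in every library. Of 10 Schwann cell genes 2 rose (sums of 26.1 to 245 and 89 to 179 CPM), and of 10 genes of fibroblasts, which make much of the fibrillar collagen of a vessel, 1 rose and 2 fell (sums of 993 to 1846 and 1026 to 1489 CPM). In the aorta 0 of 10 fibroblast genes were called (sums of 1331 to 1731 and 882 to 1179 CPM), with 1 smooth muscle gene higher and 1 lower. Of 10 endothelial genes 3 rose there (sums of 839 to 1418 and 1235 to 1744 CPM), and of 10 macrophage genes 1 fell (sums of 186 to 343 and 103 to 161 CPM). The fibroblast and the macrophage sums did not overlap between the genotypes in the aorta. No endothelial or macrophage marker was called in the DA, and no Schwann cell or melanocyte marker in the aorta. No cardiomyocyte or epithelial marker was called in either vessel. The part of these cell types in the collagen changes was not tested.

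In the DA the first series held 3 Prdm6-deficient and 2 control libraries and the second 2 and 5, and all 14 called chains kept their sign within both. The calls came from these same libraries, so the shared sign is not separate evidence. The 2 control DA libraries of the first series were labelled Wnt1Cre;PRDM6wt/wt and PRDM6wt/wt, and the 5 of the second PRDM6wt/f. Series and control genotype thus cannot be told apart in the DA. Col8a1, Col11a1, Col12a1 and Col6a2 were called within the first series (4 chains) and Col11a1, Col12a1, Col6a3, Col16a1 and Col18a1 within the second (5 chains). Leaving out Prdm6-deficient DA replicate 1 lowered the count in the DA from 14 to 9. In the aorta the second series, with 3 Prdm6-deficient and 5 control libraries, kept 7 of the 9 chains.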

How the data were processed

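RNA was measured by low-input paired-end RNA-Seq of microdissected DA and ascending aorta. The authors filtered the reads, aligned them to mm10 with STAR and estimated counts per gene with RSEM (versions not given in the sources used here). The deposited values are expected counts for 54752 genes, of which 6.13 to 8.76% per library were not whole, and they were rounded before testing. Estimated counts share reads between similar or overlapping genes, and use of strand is not given in the sources used here. Of 24 labelled samples, 23 had a column.

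Symbols, biotypes and lengths came from GENCODE M21: 53861 identifiers matched with their version, 54723 without it and 29 not at all. Genes were filtered with filterByExpr, scaled by TMM and tested with edgeR 4.0.16 (R 4.3.3) in a quasi-likelihood fit with 1 mean per group over all 23 libraries, so that groups shared 1 estimate of spread, with Benjamini-Hochberg adjustment over 16463 genes. The limits for a call, 0.01 for the adjusted p and 0.5 for the log2 fold change, were those of the study. CPM were computed from the rounded counts with TMM scaling, and values after ± are SD over libraries. The total count per library was 15163974 to 22610547, and the limit of 3 counts covers counting error only. Tables were made with pandas 2.3.3 and figures with matplotlib 3.10.9 in Python 3.11.15. The scripts were tested on simulated data.

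Alternatives were DESeq2 1.42.0, DESeq2 size factors, no filter, a replicate block, the series of embryos as covariate or fitted apart, leaving out pooled samples, the control with Cre or each library, and the libraries of 1 vessel alone. Members, lists and the genes named (every member called in any comparison, the main vascular chains, and of each list of processing genes at most 4 called ones by fold change in the DA) were chosen with earlier results of these data known. Replicate numbers did not pair the samples: deviations from group means correlated at -0.0517 to 0.174 over 28 same-numbered pairs, 1 of them over 0.1. The 8 pairs from the same embryo, with pooled samples left out, correlated at -0.0127 to 0.103. No 2 libraries of a group agreed within sampling noise (chi-square per gene 16.62 to 122.3). Pairs with Prdm6-deficient DA replicate 1, a pool, had 90.14 to 122.3, and the other pairs of its group 24.41 to 39.14. Pairs with control aorta replicate 4 had 70.88 to 115.4, and the other pairs of its group 22.23 to 31.64.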

Additional observations from a re-analysis of the deposited data

Results flagged for a closer look

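A single library stood apart from the others of its group in 6 of 100 groups examined over 25 chains, where chance alone gives about 1 in 20. Control DA replicate 1 was lowest for Col4a1 at 873.8 CPM. Prdm6-deficient aorta replicate 3 was lowest for Col5a2 at 760.9 CPM, highest for Col9a3 at 5.87 CPM and highest for Col23a1 at 49.3 CPM. Control aorta replicate 4 was highest for Col9a3 at 6.31 CPM, and Prdm6-deficient DA replicate 7 was highest for Col18a1 at 195 CPM.

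The effect of Prdm6 deficiency differed between the vessels for 8 chains by edgeR's interaction test. On the log2 scale, DA effect minus aorta effect, the difference was -2.56 for Col8a1, -1.60 for Col8a2, 1.30 for Col24a1, 2.32 for Col6a6, 1.70 for Col6a3, 0.85 for Col16a1, 0.69 for Col27a1 and 1.42 for Col14a1. The 8 chains were called in every fit that left out 1 library. Without the pooled samples, Col16a1 (adjusted p = 0.01 after rounding) and Col27a1 (adjusted p = 0.0147) were not called. Col27a1 was also not called with the replicate number as a block (adjusted p = 0.0189).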

How the results depend on the processing

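None of the called changes of collagen chains turned in direction under the alternatives run on them, and chains that were not called were not followed in this way. Of the calls of collagen chains, 2 of 14 in the DA, 7 of 9 in the aorta, 6 of 10 between the control vessels and 3 of 8 for the difference of effects were kept in every fit. In Prdm6-deficient against control DA, 4 chains were called within the first series of embryos and 5 within the second (14 in all libraries together), and 201 and 419 of all genes (894 together). The other alternatives gave 10 to 15 chains there and 611 to 1141 of all genes, both lowest with DA libraries alone and highest with DESeq2. In the aorta 702 of all genes were called with aorta libraries alone and 226 within the second series (404 with all libraries). Between the Prdm6-deficient vessels DESeq2 called 2 chains and the fit with no filter 1 (edgeR 0), and of all genes 147 were called by DESeq2, 15 without the pooled samples and 6 within the second series (44 with edgeR). The difference of effects within the second series held 3 chains (8 together) and 166 genes, and DESeq2 called 649 genes (425 with edgeR). The fits within the second series for all comparisons except that of the genotypes in the DA, and the lengths of single transcripts, were chosen after seeing the data. The causes were not tested.

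Leaving out 1 library at a time gave 9 to 15 chains in the DA (9 without Prdm6-deficient DA replicate 1) and 784 to 948 of all genes, 8 to 10 chains and 325 to 441 genes in the aorta, 8 to 12 chains and 775 to 963 genes between the control vessels, 0 to 1 chain and 22 to 58 genes between the Prdm6-deficient vessels (1 chain without Prdm6-deficient DA replicate 5 or control DA replicate 5), and 8 to 9 chains and 359 to 490 genes for the difference of effects.

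With the replicate number as a block, which the check of the pairing did not support, 11 chains were called in the DA, 9 in the aorta, 11 between the control vessels, 0 between the Prdm6-deficient vessels and 7 for the difference, and 780, 358, 826, 16 and 335 of all genes. With the embryo as the block, 8 chains were called between the control vessels, without Col6a2 and Col18a1, and 674 of all genes (882 with no block). Depth limits the chains near 3 counts per library, among them Col10a1, Col19a1, Col20a1 and Col22a1.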
